A study of Mus musculus with 4 samples.

Results

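Enzymes of sugar and NADPH metabolism are described here in mouse kidney epithelial cells with and without fumarate hydratase. Pfkm, Tpi1 and Gpi1 belong to glycolysis, Tkt and Taldo1 to the non-oxidative branch of the pentose phosphate pathway, and Nnt is the mitochondrial transhydrogenase. They were chosen by gene symbol from the deposited comparison of the genotypes, and are 6 of 1613 genes with a name and of 16752 genes tested. RNA levels were read on 4 Affymetrix arrays, 2 a genotype, whose probes lie along the body of each gene. The control cells were Fh1fl/fl, with both Fh1 alleles flanked by recombination sites, and kept fumarate hydratase. The Fh1Δ/Δ cells had lost it. Both came from a C57BL/6 background, were immortalised, untreated and in normoxia, and grew in DMEM with 10% serum and 2 mM glutamine, to which the study's methods add pyruvate and uridine. How Fh1 was deleted in the Fh1Δ/Δ line, and whether each line was 1 clone, is not given in the sources used here. The labels call the arrays of a group biological replicates without naming separate cultures, so the p-values below measure only the spread between these arrays, which may be technical.

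Fumarate hydratase turns fumarate into malate in the tricarboxylic acid cycle, and cells without it accumulate fumarate and lean on glycolysis. Glycolysis splits glucose to pyruvate in the cytosol. The pentose phosphate pathway leaves glycolysis at glucose 6-phosphate, makes NADPH in its oxidative branch, and returns carbon to glycolysis through transketolase and transaldolase. NADPH keeps glutathione reduced, and in mitochondria the transhydrogenase makes it from NADH at the expense of the proton gradient.

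The promoters of these genes are shown for the only members whose window held a motif searched, Pfkm at its first and second start, and for Tkt as one without. Of the 6 genes, 5 matched the RefSeq promoter table (GRCm38.p6, 250 bases before to 50 after the start), with 8 promoters in all, 4 of them of Pfkm. Nnt was not matched. Searched on both strands were ACGTG, the core of the hypoxia response element, CACGTG, an E-box that contains ACGTG on each strand, and TGACNNNGC, the core of the antioxidant response element. Capitals mark ACGTG or its reverse complement, read 5′ to 3′ on the strand of the gene.
Pfkm, first start, chr15:98092339-98092638 (+): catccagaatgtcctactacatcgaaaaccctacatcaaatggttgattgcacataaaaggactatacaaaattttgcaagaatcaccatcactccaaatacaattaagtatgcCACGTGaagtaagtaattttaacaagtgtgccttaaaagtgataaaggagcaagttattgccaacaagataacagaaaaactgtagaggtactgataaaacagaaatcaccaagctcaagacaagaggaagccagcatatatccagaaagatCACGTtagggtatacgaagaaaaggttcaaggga
Pfkm, second start, chr15:98108221-98108520 (+): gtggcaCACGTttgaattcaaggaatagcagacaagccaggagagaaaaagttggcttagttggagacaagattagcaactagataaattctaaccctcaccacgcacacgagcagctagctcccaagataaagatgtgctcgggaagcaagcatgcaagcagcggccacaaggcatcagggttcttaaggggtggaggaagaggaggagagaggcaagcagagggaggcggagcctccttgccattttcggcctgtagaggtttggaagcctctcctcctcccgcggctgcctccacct
Tkt, chr14:30548881-30549180 (+): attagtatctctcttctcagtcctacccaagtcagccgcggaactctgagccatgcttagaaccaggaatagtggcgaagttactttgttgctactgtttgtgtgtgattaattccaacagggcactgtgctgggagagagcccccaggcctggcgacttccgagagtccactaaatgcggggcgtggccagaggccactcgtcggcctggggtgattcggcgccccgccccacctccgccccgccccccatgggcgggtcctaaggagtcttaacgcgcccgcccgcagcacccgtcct

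ACGTG was found in 2 of the 8 promoters, against 19.6% of 32851 mouse promoters of the same length. At the first start of Pfkm the palindrome CACGTG lies at position -136 from the start site and a further ACGTG, on the other strand, at position 17, and at the second start the match lies at position -244. CACGTG was in 1 of 8, against 7.2% of all promoters, and TGACNNNGC in 0 of 8, against 12.4%. The promoter of Tkt held 61.0% G or C and 20 CpG, those of Tpi1 57.3% and 15, of Gpi1 57.3% and 21, and of Taldo1 56.7% and 22, beside a median of 52.7% and 7 CpG over all promoters. The first start of Pfkm was poorer, with 36.7% G or C and 4 CpG. Which start the cells use was not measured, and a match is a run of letters and not a binding site.

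As a check of the labels, Fh1 itself read 10.48 and 10.45 in log2 expression on the Fh1fl/fl arrays and 9.21 and 9.14 on the Fh1Δ/Δ arrays, which is -1.29 in log2 (adjusted p = 0.00579 by limma, standard error 0.11). The position of its probes within the gene is not known here. Too few of 25 markers of kidney epithelium, fibroblasts, endothelium and leukocytes have a name in the deposited table for the labelled cell type to be checked. The lines also differed on chromosome Y, where the 3 probe sets had a median log2 difference of -4.39, so line and genotype cannot be told apart. Replicates of a genotype correlated at 0.992 across genes, which are not independent replicates.

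All 6 genes read higher on both Fh1Δ/Δ arrays than on either Fh1fl/fl array, and all 6 passed the test across 16752 genes at an adjusted p under 0.05. These calls depend on having all 4 arrays. With any 1 array left out, Tpi1, Gpi1, Tkt, Taldo1 and Nnt no longer passed, and Pfkm passed except without Fh1Δ/Δ replicate 1, although no difference changed direction. In an unmoderated model none of the 6 passed (adjusted p from 0.118 to 0.162), and nor did any other of the 16752 genes. Calls over all genes also fell with an array left out, so neither loss is particular to these 6. The increases ran from 1.42-fold for Gpi1 to 2.24-fold for Pfkm. Over all genes tested, 6.23% were called higher and 3.99% lower (10.2% in either direction), and 25.6% had both Fh1Δ/Δ arrays above both Fh1fl/fl arrays, with 40.7% the other way round. The table gives names only to genes that had passed the authors' own test of these cells. Of the 1613 named genes 41.2% were called higher, so the 6 calls are not independent evidence. With 2 arrays a group, an exact two-sided permutation test of a single gene cannot go below p = 0.333, and every adjusted p in the text comes from limma, which borrows its estimate of spread from all genes.

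**Figure D1:**
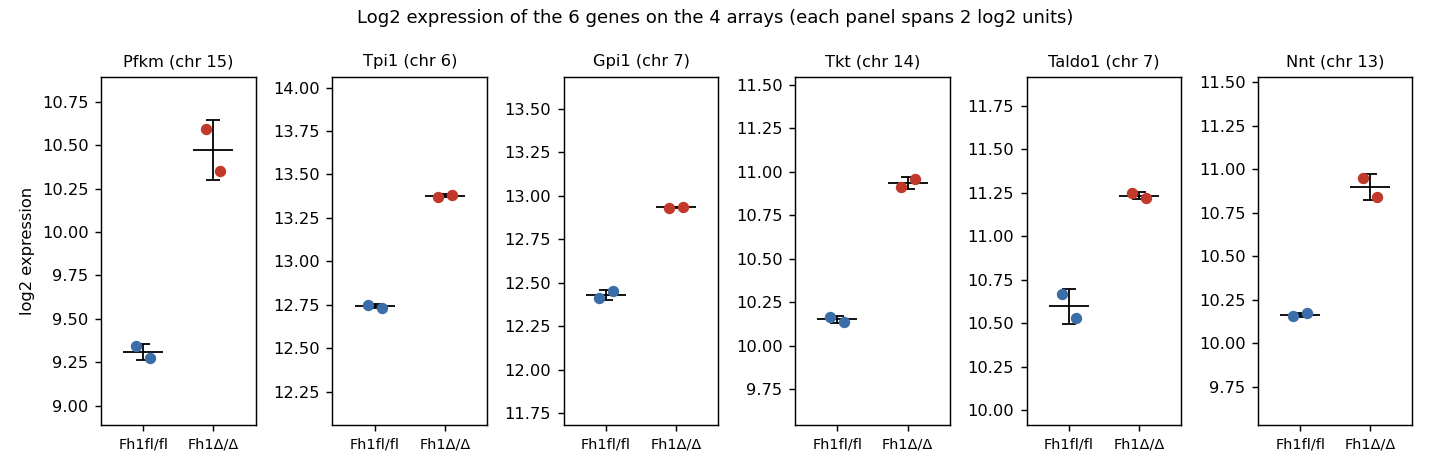
Log2 expression (y axis) of each gene on the 2 Fh1fl/fl arrays (blue) and the 2 Fh1Δ/Δ arrays (red), with the mean as a line and bars of 1 SD (n = 2). The groups do not overlap in any panel, and the replicates lie farthest apart for Pfkm in Fh1Δ/Δ cells (10.59 and 10.35).

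Pfkm, the muscle form of phosphofructokinase, which commits sugar to glycolysis by making fructose 1,6-bisphosphate, had the largest difference of the 6. It read 9.34 and 9.28 on the Fh1fl/fl arrays and 10.59 and 10.35 on the Fh1Δ/Δ arrays. The lowest Fh1Δ/Δ value lay 1.01 above the highest Fh1fl/fl value, while the replicates of Fh1Δ/Δ cells were 0.24 apart. The log2 difference was 1.16 (standard error 0.13, 95% interval 0.83 to 1.49, adjusted p = 0.0118), or 2.24-fold (1.78 to 2.82).

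Gpi1, glucose phosphate isomerase, converts glucose 6-phosphate to fructose 6-phosphate at the fork between glycolysis and the pentose phosphate pathway. It read 12.41 and 12.45 in Fh1fl/fl and 12.93 and 12.94 in Fh1Δ/Δ cells. This was the smallest of the 6 differences, 0.50 in log2 (standard error 0.11, interval 0.23 to 0.78) or 1.42-fold (1.17 to 1.71), and its adjusted p of 0.0486 lay closest to the threshold. The replicates were at most 0.04 apart. With the replicate number as a block the adjusted p was 0.0597 and with each array centred on its median 0.0711, within a range of 0.00232 to 0.174 over all alternatives.

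Tpi1, triosephosphate isomerase, interconverts the triose phosphates that aldolase produces. It read 12.75 and 12.73 in Fh1fl/fl and 13.37 and 13.38 in Fh1Δ/Δ cells, with replicates at most 0.02 apart. Its log2 difference was 0.64 (standard error 0.11, interval 0.36 to 0.91, adjusted p = 0.0300), or 1.55-fold (1.29 to 1.88).

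Tkt and Taldo1 encode the transferases that link pentose phosphates back to glycolysis. Tkt, transketolase, moves a short sugar fragment with thiamine diphosphate as cofactor and read 10.17 and 10.14 in Fh1fl/fl against 10.91 and 10.96 in Fh1Δ/Δ cells. This log2 difference of 0.79 (standard error 0.11, interval 0.51 to 1.06, adjusted p = 0.0191) is 1.72-fold (1.42 to 2.09). Taldo1, transaldolase, read 10.67 and 10.53 in Fh1fl/fl and 11.25 and 11.22 in Fh1Δ/Δ cells. Its Fh1fl/fl arrays lay 0.14 apart, and the log2 difference was 0.64 (standard error 0.12, interval 0.34 to 0.93, adjusted p = 0.0343), or 1.55-fold (1.27 to 1.91).

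Nnt encodes nicotinamide nucleotide transhydrogenase of the inner mitochondrial membrane. It read 10.16 and 10.17 in Fh1fl/fl and 10.95 and 10.84 in Fh1Δ/Δ cells, with groups that do not overlap. The log2 difference was 0.73 (standard error 0.11, interval 0.45 to 1.02, adjusted p = 0.0240), or 1.66-fold (1.36 to 2.02). The C57BL/6J substrain is known for a deletion within Nnt that leaves a transcript but no working protein. The labels give C57BL/6 without a substrain, and the deposited table pairs this probe set with a non-coding RefSeq record of Nnt, so the values stand for RNA and not for transhydrogenase protein.

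Over the 4 pairings of 1 Fh1Δ/Δ with 1 Fh1fl/fl array, which share arrays, Pfkm ranged from 1.01 to 1.32, above every pairing of the other 5 genes. Tkt (0.75 to 0.82) and Nnt (0.67 to 0.79) overlapped, as did Taldo1 (0.55 to 0.72) with both Nnt and Tpi1 (0.62 to 0.65). Gpi1 (0.48 to 0.52) lay below the others in every pairing. The limma interval of Pfkm overlaps those of all but Gpi1, the intervals of the other 5 genes overlap one another, and differences between genes were not tested.

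The genes were then set against their own chromosomes, because the differences between genotypes were not spread evenly over the genome. Over all genes tested the median log2 difference was -0.11, and it depended on level, at 0.02 in probe sets brighter than the median level of 7.24 and -0.22 in dimmer ones. All 6 genes belong to the brighter probe sets. Among the brighter probe sets, chromosome 14, which carries Tkt, had the highest median of the 20 chromosomes compared (0.45), chromosome 15 with Pfkm the third (0.31), chromosome 13 with Nnt the fourth (0.29) and chromosome 6 with Tpi1 the fifth (0.16). Chromosome 7, which carries both Gpi1 and Taldo1, stood lower in that order (0.07), and chromosome 10 was lowest (-0.33). The named genes, which had passed the authors' test, weigh on these medians. Over probe sets of every level the median of chromosome 14 was 0.18 with them and 0.02 without, that of chromosome 15 was 0.12 and 0.03, and that of chromosome 13 was 0.11 and 0.03. Leaving them out in turn removes large differences by selection.

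**Figure D2:**
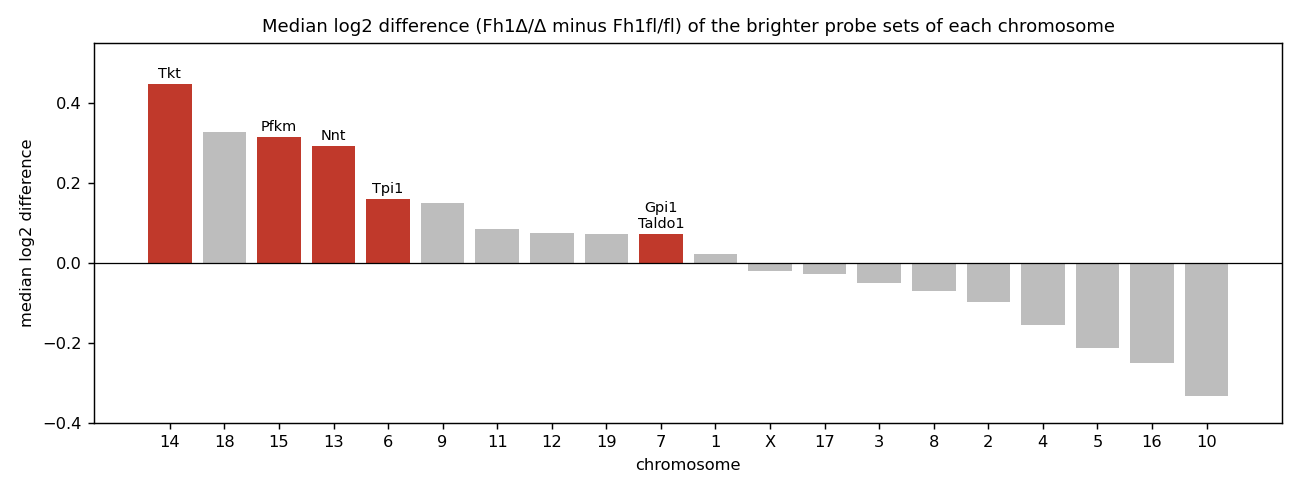
Median log2 difference (y axis, Fh1Δ/Δ minus Fh1fl/fl) of the probe sets brighter than the median level on each chromosome (x axis, in order of the median), with the chromosomes that carry the 6 genes in red. Tkt lies on the highest bar (0.45), and Gpi1 and Taldo1 on one close to zero (0.07).

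Calls of higher genes followed the same order. They made up 19.6% of the probe sets placed on chromosome 14, 14.7% on chromosome 15, 13.7% on chromosome 13, 7.35% on chromosome 6 and 5.13% on chromosome 7, against 6.23% of all genes tested. These shares cover probe sets of every level, and among brighter probe sets over the whole genome 8.95% were called higher.

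Pfkm stood farthest from its chromosome. Of the 618 other probe sets placed on chromosome 15, 14 (2.27%) had a difference at least as large, and the median of the 618 was 0.12. Of the 511 without a name, 1 (0.196%) reached Pfkm. That set lacks the named genes, which had passed the authors' test, so large differences are scarce in it by selection. Among the 50 nearest to Pfkm in mean level, 94.0% were above 0 with a median of 0.32, and 0 of 50 reached Pfkm. The excess of Pfkm over that median was 0.84, from 0.68 to 1.00 over the pairings of arrays.

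Tkt stood closest. On chromosome 14 the 555 other probe sets had a median of 0.17, and 64 of them (11.5%) equalled or exceeded Tkt. Of the 50 nearest in level 94.0% were above 0, their median was 0.42, and 8 of 50 reached Tkt. Its excess of 0.36 (0.25 to 0.44 over the pairings) is therefore less than the part of the difference that its chromosome neighbours in level also showed. Among probe sets of the chromosome without a name, 23 of 461 (4.99%) reached Tkt. For Nnt these were 34 of 526 (6.46%) and for Gpi1 52 of 1176 (4.42%). The excess over their median was 0.76 for Tkt, 0.70 for Nnt and 0.62 for Gpi1. These sets lack the named genes, which had passed the authors' test, so large differences are scarce in them by selection. Their shares and excesses therefore do not rank the genes.

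Nnt lay between Pfkm and Tkt in these counts with named probe sets included. The 605 other probe sets of chromosome 13 had a median of 0.11 and 65 (10.7%) reached Nnt. Those 50 nearest in level had a median of 0.22, with 78.0% above 0, and 2 of 50 reached it, which left an excess of 0.51 (0.42 to 0.60). Nearby probe sets were higher still. Among the 33 brighter ones within 50 places before Nnt in probe set order the median was 0.44, and 4 equalled or exceeded Nnt. The excess of Nnt over that median was 0.29, smaller than the 0.33 of Tkt over its own brighter neighbours.

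Tpi1, Gpi1 and Taldo1 lie on chromosomes whose probe sets of like level had medians nearer to 0. For Tpi1 the 50 nearest in level on chromosome 6 had a median of 0.11, and 2 of 50 reached it, an excess of 0.53 (0.50 to 0.61). For Gpi1 the corresponding median on chromosome 7 was 0.04, 8 of 50 reached it, and the excess was 0.46 (0.37 to 0.52). For Taldo1, on the same chromosome, the median was 0.01, 2 of 50 reached it, and the excess of 0.63 (0.55 to 0.67) was nearly the whole of its difference. Among the 43 brighter probe sets within 50 places of Taldo1 the median was 0.16, 5 reached it, and the excess was 0.48. Against all probe sets of the chromosome, 67 of 924 reached Tpi1 (7.25%), 95 of 1266 reached Gpi1 (7.50%) and 61 of 1266 reached Taldo1 (4.82%).

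**Figure D3:**
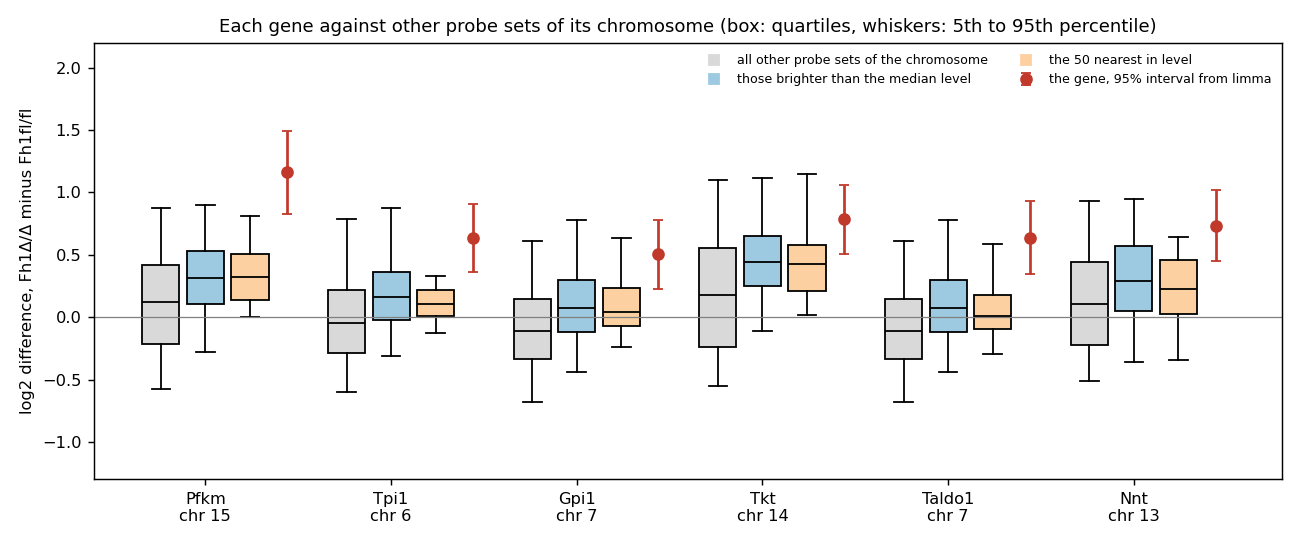
Log2 difference (y axis, Fh1Δ/Δ minus Fh1fl/fl) of each gene (red, with the 95% interval from limma) beside boxes for all other probe sets of its chromosome (grey), those brighter than the median level (blue) and the 50 nearest to the gene in level (orange). Boxes give the quartiles and whiskers the 5th to 95th percentile, and the orange box of Tkt has the highest median (0.42) while that of Taldo1 lies near zero (0.01).

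The test was repeated after the shift of the chromosome was subtracted, with standard errors unchanged, since the shift was taken as known. With the median of the whole chromosome removed all 6 genes passed, at log2 differences from 0.61 for Tkt to 1.04 for Pfkm, and 6.59% of all genes were called higher. With the median of the chromosome's brighter probe sets removed 2 of 6 passed, Pfkm at 0.85 (adjusted p = 0.0254) and Taldo1 at 0.57 (0.0488), with 5.86% of all genes called higher. Tpi1 was then 0.48 (adjusted p = 0.0618), Nnt 0.44 (0.0808), Gpi1 0.43 (0.0787) and Tkt 0.34 (0.134). With the median of the 50 probe sets nearest in level removed, which was added once the data had been seen, Pfkm, Taldo1 and Tpi1 passed, the last with an adjusted p of 0.0495, with 5.36% of all genes called higher. With the median of the 50 probe sets on either side in probe set order removed, 5 of 6 passed and Nnt, which has such neighbours on one side only, was 0.45 (adjusted p = 0.0732), with 6.51% of all genes called higher. Those neighbours include dimmer probe sets. For Tkt the excess was 0.56 over all of them and 0.33 over the brighter ones, which were not tested apart. Over these and all other alternatives the adjusted p ranged from 0.000269 to 0.161 for Pfkm, 0.00244 to 0.162 for Taldo1, 0.000644 to 0.129 for Tpi1, 0.00128 to 0.141 for Nnt and 0.000777 to 0.134 for Tkt.

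**Figure D4:**
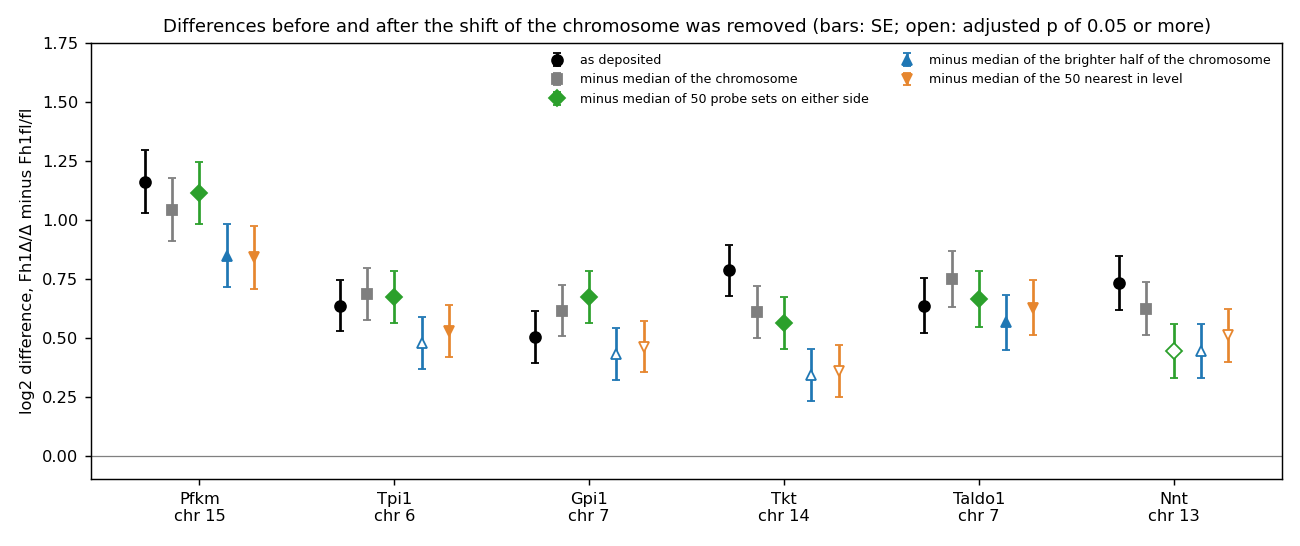
Log2 difference (y axis, Fh1Δ/Δ minus Fh1fl/fl) of each gene as deposited and after 4 ways of removing the shift of its chromosome, with bars of 1 standard error from limma and open symbols for an adjusted p of 0.05 or more. Every symbol stays above 0, Pfkm and Taldo1 are filled throughout, and Tkt falls farthest, from 0.79 to 0.34.

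The genes beside each member differed among themselves. Slc48a1, a heme transporter and the nearest named gene before Pfkm, was higher by 1.17 (adjusted p = 0.00723), as much as Pfkm, and Slc38a2 before it was at 0.34 (0.0985), while Asb8 and Cacnb3 after it were at 0.49 (0.0591) and 0.56 (0.0556) and did not pass. Around Taldo1, Sigirr (1.13), Tmem80 (1.28) and Pnpla2 (1.21), the adipose triglyceride lipase, all passed and exceeded Taldo1, whereas Ap2a2 was at 0.47 (adjusted p = 0.0592). Beside Tkt, Fam116a (0.80, adjusted p = 0.0315) and Capn7 (1.01, 0.0140) passed, and Lrtm1 was at -0.41 (0.0732) and Phf7 at 0.53 (0.0607). Beside Tpi1, Ccnd2, the cell cycle regulator cyclin D2, was higher by 3.87 and the complement receptor C3ar1 by 1.53, with Lpcat3 at 0.18 and Tuba3a at -0.42, neither past the test. Beside Gpi1, Fxyd5 (1.10) and Kctd15 (1.37) rose, and the podocyte gene Nphs1 was at -0.46 (adjusted p = 0.0689) and 4931406P16Rik at -0.40 (0.0803). Emb, the last named gene before Nnt, was higher by 1.59 (adjusted p = 0.00787) and Snx18 before it was at 0.19 (0.280). These named genes had all passed the authors' test, so they are not a sample of the neighbourhood. Places in probe set order give another neighbourhood, which leaves out Emb, for example. Over all probe sets within 50 such places, with or without a name, the median was 0.05 at Pfkm, -0.04 at Tpi1, -0.17 at Gpi1, 0.22 at Tkt, -0.03 at Taldo1 and 0.29 at Nnt. Over brighter ones it was 0.32 at Pfkm, 0.14 at Tpi1, -0.06 at Gpi1, 0.45 at Tkt, 0.16 at Taldo1 and 0.44 at Nnt.

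**Figure D5:**
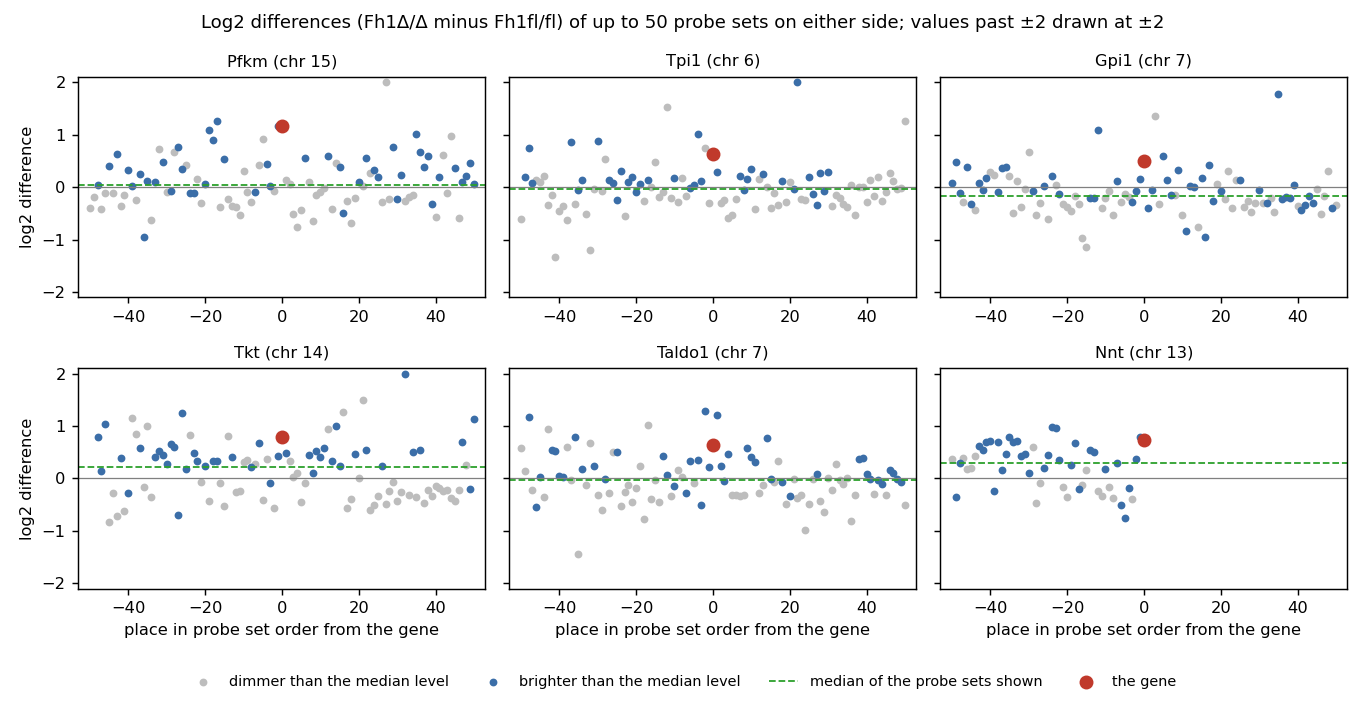
Log2 difference (y axis, Fh1Δ/Δ minus Fh1fl/fl, values past ±2 drawn at ±2) of up to 50 probe sets on either side of each gene (x axis, place in probe set order), brighter probe sets in blue, dimmer ones in grey and the gene in red, with a dashed line at the median of those shown. The dashed line is highest for Nnt (0.29) and Tkt (0.22), and most brighter probe sets around Tkt lie above 0.

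Of the rest of these pathways the deposited table names few genes. From a list of 43 genes of glycolysis and glucose uptake 4 have a name, and all 4 were called higher, with a median log2 difference of 0.89. The median over all genes tested was -0.11, with 6.23% called higher (41.2% of named genes), but these 4 have a name because they had passed the authors' test, and 3 of them are Pfkm, Tpi1 and Gpi1. The fourth is Adpgk, the ADP-dependent glucokinase, which read 8.57 and 8.49 in Fh1fl/fl and 9.65 and 9.71 in Fh1Δ/Δ cells, a difference of 1.15 (standard error 0.11, adjusted p = 0.00787). From 16 genes of the pentose phosphate pathway only Tkt and Taldo1 have a name (2 of 2 higher, median 0.71), so its oxidative branch, where NADPH is made, was not analysed here.

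From 16 genes of other NADPH sources 4 have a name, of which 3 were higher and 0 lower, with a median of 0.93. Beside Nnt these are Mthfd2 and Aldh1l2, mitochondrial enzymes of folate metabolism, and Glud1, the mitochondrial glutamate dehydrogenase. Aldh1l2 read 5.70 and 5.84 in Fh1fl/fl and 10.19 and 10.43 in Fh1Δ/Δ cells, a difference of 4.54 (standard error 0.14, adjusted p = 0.000438) on chromosome 10, whose probe sets of like level had a median of -0.30. Mthfd2, on chromosome 6 with Tpi1, read 10.12 and 9.84 against 11.07 and 11.14, a difference of 1.13 (standard error 0.14, adjusted p = 0.0147). Glud1, on chromosome 14 with Tkt, read 10.34 and 10.45 against 10.93 and 10.86 and did not pass (0.50, adjusted p = 0.0542), and it lay 0.08 above the probe sets of like level on that chromosome. List genes without a name in the table were not looked at, and named ones had passed the authors' test.

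The named gene closest in pattern to each of the 6 was found by the root mean square difference over the 4 arrays, after each gene was centred on its own mean. D6Wsu116e was closest to Taldo1 (0.0036), Cast, the calpain inhibitor calpastatin, to Tpi1 (0.0077) and Slc43a2, an amino acid transporter, to Gpi1 (0.0119). Parp2, a DNA repair enzyme on chromosome 14 like Tkt, was closest to Tkt (0.014), 4632404H12Rik to Pfkm (0.017) and Arhgap29 to Nnt (0.0199). Among the 6 genes themselves, Tpi1 and Taldo1 were most alike (0.0463) and Pfkm and Gpi1 least (0.3425). With 4 arrays in 2 groups this measure reflects mainly the size of the difference.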

How the data were processed

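RNA samples, 2 a genotype, were hybridised to Affymetrix whole-transcript arrays. Values of 16755 probe sets were deposited in log2, normalized by the authors, whose processing notes list RMA, Partek and mm9 with no version. A second deposited table holds the same log2 values for 1616 probe sets with a name, beside the authors' own p-values and fold changes, which were not used. Names come only from it, and 1608 matched RefSeq (GRCm38.p6). In 3 tables, 12 columns of hypoxia arrays match no listed sample and were not used here, so normoxia alone is described. Replicate number 1 or 2 came from the labels.

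Differences were tested in R 4.3.3 by limma 3.58.1 (eBayes after lmFit, genotype only, 3.447 prior and 2 residual degrees of freedom), with Benjamini-Hochberg adjustment over 16752 genes (of 3 duplicated names the probe set with the highest mean was kept) and a threshold of 0.05. Values are on a scale common to the arrays, so a difference is relative to the whole array, and the number of arrays limits the precision. The distributions of the arrays were not equal. Their medians were 7.22 and 7.18 in Fh1fl/fl and 7.32 and 7.26 in Fh1Δ/Δ cells. The lower quartiles were 5.64 and 5.70 against 5.37 and 5.53. A probe set without a name took its chromosome from the named probe sets on both sides in probe set order. In all 16098 were placed, and the rule was right for 1537 of 1548 named probe sets checked. Probe set order followed the reference's start positions with 1 step back on 13 of 21 chromosomes and at most 2, so a chromosome is run through more than once and neighbours in the order are not always adjacent on it.

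The members and lists were chosen with earlier results of these data known. Named are the 6 genes, Fh1, list genes with a name, the 2 nearest named genes on either side by reference order, and the named genes closest in pattern, of which 3 per gene were computed and the closest is given. Alternatives were the replicate block, each array left out, limma with trend and robust, an unmoderated model, quantile normalization, median centring, leaving out the dimmest 25% or 50%, and 4 ways of removing the shift of a chromosome, 1 of them chosen after seeing the data.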

Additional observations from a re-analysis of the deposited data

How the results depend on the processing

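No gene of the 6 changed direction under any of the 15 alternatives, and Pfkm passed under 13, Taldo1 under 10, Tpi1 under 9, Tkt under 8, Nnt under 7 and Gpi1 under 6. Leaving out 1 array leaves a group with a lone array, assumed to vary like the other group. Pfkm (1.04 to 1.28) then passed except without Fh1Δ/Δ replicate 1, and the other 5 did not pass with any of the 4 arrays left out: Tpi1 0.63 to 0.64, Gpi1 0.48 to 0.52, Tkt 0.76 to 0.81, Taldo1 0.57 to 0.71 and Nnt 0.68 to 0.79. Genes called higher then numbered 205 to 480 and lower 81 to 322, so every one of the 4 arrays moves the counts by over 1.5 times.

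With the replicate block, of the 6 calls only that of Gpi1 was lost (0.50, adjusted p = 0.0597). The labels do not say that a replicate number marks a shared batch, but array numbers in the column names run with it. Deviations of same-numbered arrays correlated at 0.106, and with 2 pairs the pairing is not settled. Within numbers 1 and 2 the differences were 1.25 and 1.07 for Pfkm, 0.62 and 0.65 for Tpi1, 0.52 and 0.49 for Gpi1, 0.75 and 0.82 for Tkt, 0.58 and 0.69 for Taldo1, and 0.79 and 0.67 for Nnt. The block gave 1009 genes higher and 749 lower. The unmoderated model called 0 genes after adjustment (1808 higher and 1860 lower at an unadjusted p under 0.05, the 6 genes among them), with unchanged differences (1.16, 0.64, 0.50, 0.79, 0.64 and 0.73 for Pfkm, Tpi1, Gpi1, Tkt, Taldo1 and Nnt). Limma gave 1044 higher and 668 lower, with trend and robust 1854 and 1471, without the dimmest 25% 1749 and 1526, and without the dimmest 50% 1693 and 1245. Median centring gave 807 and 1052, which took the higher share of calls from 61.0% to 43.4%, and Gpi1 did not pass (0.41).

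Removing the shift of each chromosome left 1104 higher and 366 lower by the whole chromosome, 982 and 319 by brighter and dimmer probe sets apart, 1090 and 379 by 50 places on either side, and 898 and 354 by nearest level, the higher share then being 75.1%, 75.5%, 74.2% and 71.7%. Not past the test were, by brighter and dimmer probe sets apart, Tpi1 (0.48), Gpi1 (0.43), Tkt (0.34) and Nnt (0.44), by place Nnt (0.45), and by nearest level Gpi1 (0.46), Tkt (0.36) and Nnt (0.51).

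The median shift of a chromosome depended on which probe sets entered. For chromosomes 15, 6, 7, 14 and 13 it was 0.12, -0.05, -0.11, 0.18 and 0.11 over all probe sets and 0.31, 0.16, 0.0707, 0.45 and 0.29 over brighter ones, so that chromosomes 6 and 7 changed sign. Over probe sets the deposited table itself places, all of which had passed the authors' test, it was 0.58, 0.58, 0.50, 0.70 and 0.64. Over those without a name it was 0.0339 on chromosome 15, -0.0763 on 6, -0.12 on 7, 0.0202 on 14 and 0.0299 on 13. With each array left out it ran from -0.0448 to -0.0288 on chromosome 6, -0.13 to -0.0634 on 7 and 0.17 to 0.21 on 14. The cause of these changes was not tested.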
